A study of Homo sapiens with 6 samples.

Results

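Serine synthesis and one-carbon folate metabolism were examined in SW480 cells, an established human colorectal cancer line, through the mRNA of the enzymes that carry them out. The enzymes were chosen by gene symbol from a list of 10, and 9 of them are among the 12982 genes of the deposited table. ALDH1L2 was not analysed here. Of the 9, 5 act in the cytosol (PHGDH, PSAT1, PSPH, SHMT1, MTHFD1) and 4 in mitochondria (SHMT2, MTHFD2, MTHFD2L, MTHFD1L). The cells were exposed for 24 h to DMSO, the solvent, or to MPM-1, a fluorescent probe that gathers in mitochondria and that the sample labels also call WT4. There were 3 libraries per treatment, all of wild-type genotype by their labels. The study's text names no dose of MPM-1 for the sequencing, and no source says whether the libraries of a treatment came from separate cultures, so p-values measure the spread between these libraries, which may be technical.

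PHGDH, PSAT1 and PSPH convert a glycolytic intermediate into serine. The serine hydroxymethyltransferases, SHMT1 in the cytosol and SHMT2 in mitochondria, then split serine into glycine and a one-carbon unit carried on folate. In mitochondria, MTHFD2 or MTHFD2L oxidises this unit, and MTHFD1L then releases it from folate as formate. Formate leaves for the cytosol, where MTHFD1 loads it onto folate again for the synthesis of purines and thymidylate. Proliferating tumour cells are known to draw most of their one-carbon units from the mitochondrial arm, and several of these genes are known targets of the stress-induced transcription factor ATF4.

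The totals were 32095456 to 40269820 counts per DMSO library and 31733667 to 35403841 per MPM-1 library, and the 9 enzymes had between 161 and 18010 counts in a library. No libraries of a treatment agreed within sampling noise (mean chi-square per gene 15.4 to 33.2), so each counted as a replicate. Of 9 colorectal epithelial markers, 8 were in the table, with EPCAM at 347 to 424 FPKM (the authors' expression value, scaled for transcript length and library size). Of 8 markers of blood, endothelial, connective tissue and liver cells, 2 were in the table. In mean FPKM, 4 of the 8 epithelial markers were higher after MPM-1 (CDH1, KRT8, KRT18 and KRT19) and 4 were lower (EPCAM, VIL1, CDX2 and LGR5), and CEACAM5 was not analysed here. COL1A1 reached at most 0.51 FPKM. CD68, which epithelial lysosomes also carry, was at a mean of 37.2 FPKM in DMSO and 71.2 after MPM-1, and its part in the results was not tested. Transcripts encoded by mitochondrial DNA took 8.28 to 9.11% of counts in DMSO and 1.95 to 2.35% after MPM-1, which bears on how libraries are scaled. In bulk RNA, fewer cells of a type and less RNA per cell cannot be told apart.

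Promoter sequences from RefSeq (GRCh38.p14) were used for 7 of the 9 enzymes, in 11 windows from 250 bases before to 50 after each start. The others are SHMT2 and PSPH. MTHFD1L has 4 windows, MTHFD2L a pair, and the rest 1 each. The letters TGATGNAA, the core of the element that ATF4 binds with a C/EBP partner, were searched on both strands. They stood in 3 of the 11 windows, all of MTHFD1L, and in 3.62% of all 35116 windows. The E-box CACGTG stood in 4 of the 11, 3 of MTHFD1L and that of MTHFD1, and in 7.26% of all windows. The CCAAT box, chosen after the sequences were seen, stood in 8 of the 11, from 6 of the 7 enzymes, and in 34.6% of all windows. The 3 windows of MTHFD1L with these letters overlap and are not independent. It was missing from the windows of MTHFD2L. The first 2 sequences below are 30-base windows, shown because they hold the searched letters, TGATGNAA for MTHFD1L (chr6:150866346-150866375, plus strand) and CACGTG for MTHFD1 (chr14:64388326-64388355, plus strand), in capitals. The other 3 are the bases before the first annotated exon of a pair of enzymes that rose and the one that fell most, with CCAAT or its reverse complement in capitals: PSAT1 (chr9:78296875-78297124, plus strand), MTHFD2 (chr2:74198365-74198561, plus strand) and SHMT1 (chr17:18363564-18363800, minus strand). A match is a description of the letters and not a binding site.
MTHFD1L: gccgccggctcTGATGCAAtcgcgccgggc
MTHFD1: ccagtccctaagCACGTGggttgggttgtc
PSAT1: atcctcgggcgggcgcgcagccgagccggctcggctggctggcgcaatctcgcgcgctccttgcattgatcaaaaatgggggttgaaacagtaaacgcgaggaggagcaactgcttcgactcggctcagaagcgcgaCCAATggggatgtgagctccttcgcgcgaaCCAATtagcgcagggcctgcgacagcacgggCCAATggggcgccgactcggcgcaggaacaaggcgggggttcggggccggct
MTHFD2: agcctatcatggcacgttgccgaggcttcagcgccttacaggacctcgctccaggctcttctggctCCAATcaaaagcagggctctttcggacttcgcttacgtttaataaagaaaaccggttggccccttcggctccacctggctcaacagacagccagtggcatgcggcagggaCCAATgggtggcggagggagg
SHMT1: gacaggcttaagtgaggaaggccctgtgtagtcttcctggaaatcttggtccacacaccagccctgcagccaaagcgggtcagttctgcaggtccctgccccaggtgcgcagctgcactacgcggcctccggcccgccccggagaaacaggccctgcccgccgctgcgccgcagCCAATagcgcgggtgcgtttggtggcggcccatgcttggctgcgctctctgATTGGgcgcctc

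After MPM-1, all 4 mitochondrial enzymes rose, while the 5 cytosolic ones divided. PHGDH and PSAT1, the first enzymes of serine synthesis, rose. PSPH, the last one, fell, as did SHMT1, and MTHFD1 did not pass the test. A gene was taken to rise or fall at an adjusted p under 0.05 from the quasi-likelihood test of edgeR, adjusted by Benjamini-Hochberg over all 12982 genes. By that rule 6 of the 9 enzymes rose and 2 fell, where 27.7% of all genes rose, 28.8% fell and 56.5% did either. Under the stricter rule for a differentially expressed gene (DEG), with adjusted p under 0.01 and a log2 change no smaller than 1 in either direction, SHMT1 was the 1 lower gene, against 8.75% of all genes, and 0 enzymes were higher, against 5.58%. DEGs of either direction made up 14.3% of all genes. The median log2 fold change was 0.79 over the 4 mitochondrial enzymes, -0.25 over the 5 cytosolic ones and -0.026 over all genes. The cytosolic median is the value of MTHFD1, and it was -0.15 without MPM-1 replicate 2 and -0.41 with scaling by library size alone. The mitochondrial median was 0.64 with library size alone, and 0.52 to 0.59 with limma on log2 FPKM values. In each of these settings 3 of the 4 mitochondrial enzymes rose.

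**Figure D1:**
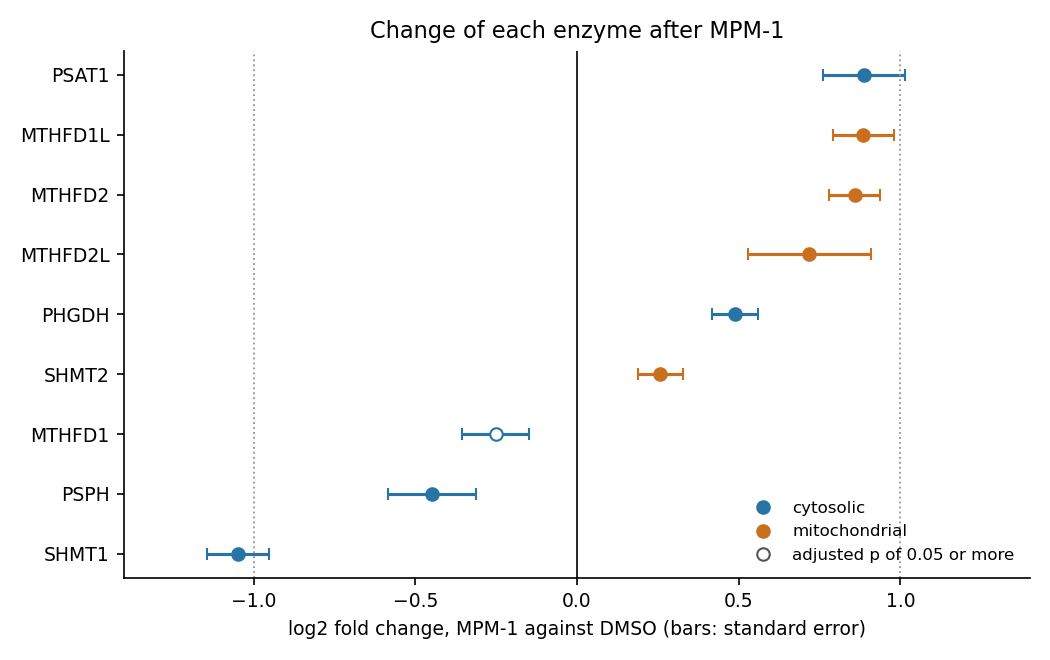
Log2 fold change of each enzyme, MPM-1 against DMSO, with its standard error as a bar, from edgeR on 3 libraries per treatment; blue marks cytosolic and orange mitochondrial enzymes, an open point an adjusted p of 0.05 or more, and dotted lines a log2 fold change of 1 in size. The 4 orange points lie between 0.26 and 0.89, and the blue points spread from -1.05 to 0.89.

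In the serine synthesis steps, PHGDH (ENSG00000092621, chromosome 1, 119648411 to 119744226 on GRCh38), the dehydrogenase that commits carbon to serine, had 244, 235 and 231 CPM (read counts scaled to library size with the TMM factors of edgeR) in DMSO replicates 1 to 3. After MPM-1 it had 351, 321 and 324 CPM. The treatments did not overlap, and the 3 libraries of each lay close together. On the log2 scale it changed by 0.49 (SE, the standard error, 0.07, edgeR adjusted p = 0.000339), which is 1.4-fold.

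PSAT1 (ENSG00000135069, chromosome 9, 78297143 to 78330093), the aminotransferase of the next step, had 90.9, 119 and 122 CPM in DMSO and 179, 229 and 205 CPM after MPM-1. DMSO replicate 1 was the lowest library, and every MPM-1 library was above every DMSO library. Its rise was 0.89 on the log2 scale (SE 0.13, edgeR adjusted p = 0.000303), or 1.85-fold, at percentile 92.1 of all genes.

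PSPH (ENSG00000146733, chromosome 7, 56011051 to 56051604), the phosphatase that releases serine, went the other way. It had 28.6, 30.1 and 31.8 CPM in DMSO and 18.9, 27.0 and 20.4 CPM after MPM-1. MPM-1 replicate 2 stood nearest to DMSO without reaching it. Its log2 change was -0.45 (SE 0.14, edgeR adjusted p = 0.0181). The call was lost, at adjusted p of 0.0517 to 0.0742 from edgeR, without DMSO replicate 2 (log2 fold change -0.45), DMSO replicate 3 (-0.41), MPM-1 replicate 1 (-0.33) or MPM-1 replicate 3 (-0.38). PSPH also shares sequence with other genes: 8.36% of the 50-base stretches of its longest transcript occur in them, most often in the pseudogene PSPHP1, so reads could have been divided. The same share was 4.72% for PSAT1, 3.73% for MTHFD1, 3.13% for MTHFD2, 2.61% for SHMT1, 0.197% for MTHFD1L and 0 for the others.

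At the step that takes the one-carbon unit from serine, the cytosolic and the mitochondrial form moved apart. SHMT1 (ENSG00000176974, chromosome 17, 18327860 to 18363563) had 41.6, 48.0 and 46.7 CPM in DMSO and 22.5, 23.0 and 20.5 CPM after MPM-1. All MPM-1 libraries lay far below the DMSO libraries. SHMT1 changed by -1.05 on the log2 scale (SE 0.10, edgeR adjusted p = 2.02e-05), a 2.07-fold lower level. Its place among the DEGs rests on a narrow margin, since the log2 fold change was -0.98 without MPM-1 replicate 3.

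SHMT2 (ENSG00000182199, chromosome 12, 57229327 to 57234935) had 325, 319 and 312 CPM in DMSO and 392, 361 and 390 CPM after MPM-1. The treatments did not overlap in CPM, though the distance was small. This rise was 0.26 on the log2 scale (SE 0.07, edgeR adjusted p = 0.0102), or 1.2-fold. On the FPKM scale the treatments overlapped, with 149, 143 and 131 FPKM in DMSO against 154, 138 and 166 FPKM after MPM-1. The rise no longer passed with limma on log2(FPKM + 0.1) (0.12, adjusted p = 0.274) or with scaling by library size alone (0.11, edgeR adjusted p = 0.168).

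Of the mitochondrial enzymes that oxidise the unit, MTHFD2 (ENSG00000065911, chromosome 2, 74198562 to 74217565), the main dehydrogenase and cyclohydrolase of the pathway in tumour cells, had the highest mean CPM of the 9 after MPM-1. CPM is not scaled for transcript length, and in mean FPKM after MPM-1 MTHFD2 (115) was below PHGDH (156) and SHMT2 (153). It had 288, 303 and 299 CPM in DMSO and 585, 493 and 536 CPM after MPM-1. The DMSO libraries were nearly equal and all MPM-1 libraries were higher. MTHFD2 rose by 0.86 on the log2 scale (SE 0.08, edgeR adjusted p = 2.26e-05), or 1.81-fold.

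MTHFD2L (ENSG00000163738, chromosome 4, 74114174 to 74303099), a related enzyme of the same step, had 4.88, 5.26 and 6.18 CPM in DMSO and 9.06, 10.4 and 7.45 CPM after MPM-1. It was the least abundant of the 9, with the largest standard error, and its treatments did not overlap. It rose by 0.72 on the log2 scale (SE 0.19, edgeR adjusted p = 0.00937).

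MTHFD1L (ENSG00000120254, chromosome 6, 150865549 to 151101887), which releases formate from folate in mitochondria, had 44.2, 41.3 and 41.6 CPM in DMSO and 88.7, 74.7 and 71.4 CPM after MPM-1. Every MPM-1 library was higher, MPM-1 replicate 1 most of all. Its rise was 0.89 on the log2 scale (SE 0.10, edgeR adjusted p = 5.42e-05), or 1.85-fold.

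MTHFD1 (ENSG00000100714, chromosome 14, 64388031 to 64463457), the enzyme that takes up formate in the cytosol, had 87.6, 103 and 107 CPM in DMSO and 92.2, 74.8 and 82.9 CPM after MPM-1. Its treatments overlapped, through DMSO replicate 1 and MPM-1 replicate 1. A log2 change of -0.25 (SE 0.10, edgeR adjusted p = 0.0631) did not pass, and the 95% interval of the single gene ran from -0.48 to -0.018. Without MPM-1 replicate 2 it was -0.15 (edgeR adjusted p = 0.247), without DMSO replicate 3 -0.19 (0.201) and without DMSO replicate 2 -0.22 (0.166). It passed without DMSO replicate 1 (-0.33, edgeR adjusted p = 0.0205), without MPM-1 replicate 1 (-0.31, adjusted p = 0.0343), with library size alone (-0.41, adjusted p = 0.00789) and with limma on log2(FPKM + 0.1) (-0.39, adjusted p = 0.0175).

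In 8 of the 9 enzymes the CPM of the treatments did not overlap, 6 higher and 2 lower after MPM-1. Among all genes this was so for 31% in the higher and 33.3% in the lower direction. In FPKM, 5 enzymes were higher without overlap (all that rose but SHMT2) and 3 were lower (PSPH, SHMT1 and MTHFD1), where 22.3% and 40.5% of all genes were.

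Some of these loci carry exons of other genes on the opposite strand, and whether the counting used strand is not given in the sources used here. Of such neighbours, SMCR8 overlaps SHMT1, ZBTB25 overlaps MTHFD1 and NDUFA4L2 overlaps SHMT2. Their means lay between 2.35 and 12.4 CPM, below those of the enzymes, and their log2 fold changes were -0.07, 0.14 and 0.29, none past the test (adjusted p of 0.664, 0.655 and 0.398 from edgeR).

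Levels of different enzymes were compared in FPKM, which is scaled for transcript length. In DMSO the order was SHMT2 (141 ± 8.92 FPKM, SD, n = 3), PHGDH (122 ± 5.29), MTHFD2 (70.7 ± 3.74), PSAT1 (51.9 ± 8.81), MTHFD1 (32.3 ± 3.85), SHMT1 (20.1 ± 1.58), PSPH (16.0 ± 0.949), MTHFD1L (14.5 ± 1.497) and MTHFD2L (3.00 ± 0.421 FPKM). All neighbours in this order were separate except PSPH and MTHFD1L, whose libraries overlapped.

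After MPM-1, PHGDH (156 ± 2.53 FPKM, SD, n = 3) and SHMT2 (153 ± 13.9) overlapped at the top, followed by MTHFD2 (115 ± 8.57) and PSAT1 (86.3 ± 11.96). MTHFD1 (24.6 ± 2.25) and MTHFD1L (23.5 ± 2.70) now overlapped, as did PSPH (10.1 ± 2.44) and SHMT1 (8.76 ± 0.665), and MTHFD2L was again lowest (4.22 ± 0.634 FPKM). SHMT1 thus went from the sixth to the eighth place in this order and MTHFD1L from the eighth to the sixth.

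**Figure D2:**
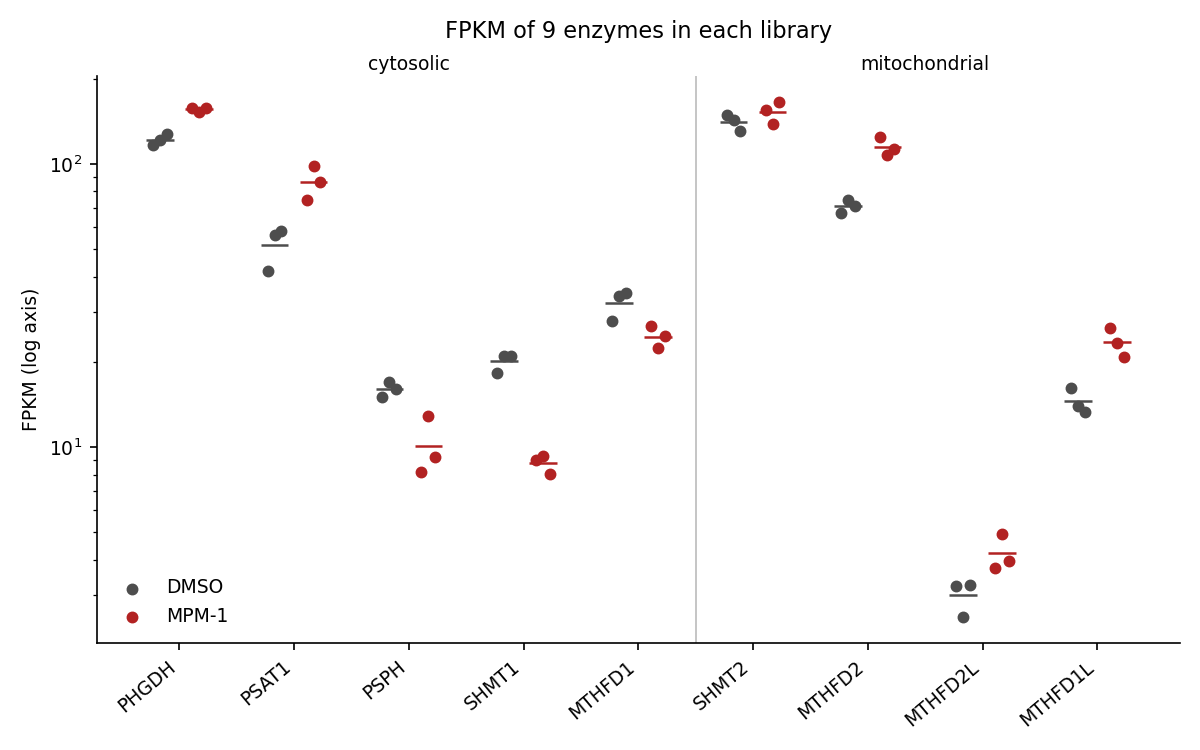
FPKM of the 9 enzymes on a log axis, with 1 point per library (grey DMSO, red MPM-1, 3 each) and a line at each mean; cytosolic enzymes are on the left and mitochondrial ones on the right. SHMT1 falls from a mean of 20.1 to 8.76 FPKM, while MTHFD1L goes from 14.5 to 23.5 FPKM.

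The balance between the compartments was then measured within each library as the ratio of a mitochondrial to a cytosolic enzyme in FPKM. Library scaling does not touch this ratio, but the FPKM of a gene is not a fixed multiple of its count. MTHFD2L had 4.88 CPM and 3.22 FPKM in DMSO replicate 1, but 5.26 CPM and 2.51 FPKM in DMSO replicate 2. The FPKM of SHMT2 was 8.14, 6.79 and 6.26 times that of SHMT1 in DMSO replicates 1 to 3 and 17.2, 14.9 and 20.7 times after MPM-1. Put as a share, SHMT1 made up 10.9 to 13.8% of the FPKM of both forms in DMSO and 4.60 to 6.28% after MPM-1. The lowest ratio after MPM-1 was well above the highest in DMSO. Most of this shift lay in SHMT1, which changed by -1.19 with limma on log2(FPKM + 0.1), against 0.12 for SHMT2 (limma adjusted p = 0.274). On the log2 scale the ratio went from 2.81 ± 0.194 to 4.13 ± 0.238 (SD, n = 3), a difference of 1.31 (SE 0.18) or 2.49-fold. The two-sided exact permutation test gave p = 0.1, the smallest that 3 libraries against 3 allow, and 0.133 after Benjamini-Hochberg adjustment over the 4 ratios tested, so this design cannot reach 0.05.

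For the formate steps, the FPKM of MTHFD1L was 0.581, 0.41 and 0.382 times that of MTHFD1 in DMSO and 0.979, 1.04 and 0.848 times after MPM-1. The cytosolic enzyme was thus the higher of the pair in every DMSO library, and the levels were close to equal after MPM-1. The log2 ratio was higher by 1.08 (SE 0.21), with the treatments apart (exact permutation p = 0.1, adjusted 0.133). The FPKM of MTHFD2 was 2.40, 2.18 and 2.03 times that of MTHFD1 in DMSO and 4.64, 4.83 and 4.58 times after MPM-1, with little spread within a treatment. This log2 ratio was higher by 1.09 (SE 0.07, exact permutation p = 0.1, adjusted 0.133). Both ratios share MTHFD1 and are not independent.

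Within mitochondria, the ratio of MTHFD2 to MTHFD2L did not separate the treatments. It was 20.8, 29.6 and 21.8 in DMSO and 33.2, 21.8 and 28.3 after MPM-1. The log2 difference was 0.21 (SE 0.24, exact permutation p = 0.4, adjusted 0.4). MTHFD2L made up 3.27 to 4.60% of the FPKM of the pair in DMSO and 2.93 to 4.39% after MPM-1. A p that misses the threshold does not show that they changed alike.

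**Figure D3:**
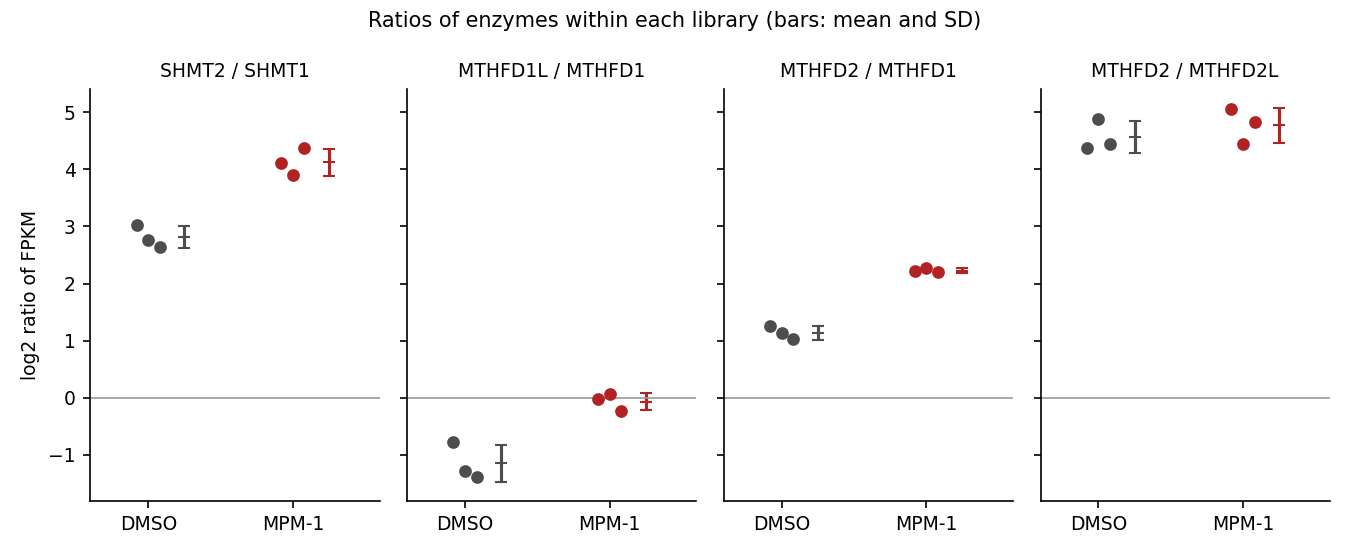
Log2 ratio of the FPKM of a pair of enzymes in each library (points; grey DMSO, red MPM-1, 3 each) with the mean and SD beside them. In the first 3 panels the MPM-1 libraries lie above all DMSO libraries, by 1.08 to 1.31 on the log2 scale in the mean, and in the fourth (MTHFD2 to MTHFD2L, 0.21) they overlap.

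Other genes of folate, serine and methionine metabolism, from 6 lists of 66 genes of which 50 were tested, are given by list. In these lists 20 genes rose and 14 fell, where 27.7% of all genes rose and 28.8% fell. Without the list of ATF4 and its targets, 8 of 38 rose and 14 fell, so the count that rose in the other 5 lists was not above the share of all genes.

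Folate entry and storage, a list that also holds the sideroflexins SFXN1, SFXN2 and SFXN3, held 0 genes that rose and 6 that fell among 11 tested. Among all genes 27.7% rose and 28.8% fell. The median log2 fold change of the list was -0.57. The median was -0.28 over the 9 tested with limma on log2(FPKM + 0.1). Those 9 leave out DHFR2 and SFXN2, both among the 6 that fell and both with a mean under 1 FPKM. In the edgeR fit the middle value of the same 9 was -0.12, so the -0.57 depends on these low genes. FOLR1, a folate receptor at the cell surface, had 62.6, 59.1 and 59.3 CPM in DMSO and 20.2, 20.4 and 24.0 CPM after MPM-1. The treatments lay far apart, and its log2 change was -1.49 (SE 0.09, edgeR adjusted p = 2.58e-06). GGH, which trims the glutamate tail of stored folate, fell from 76.4 ± 4.15 to 41.5 ± 3.47 CPM (SD, n = 3), a log2 fold change of -0.88. The sideroflexins, named here after their values were seen, are no folate genes: SFXN1 is a mitochondrial serine carrier and the others are of its family. SFXN1 had 143 CPM in DMSO and 148 CPM after MPM-1 (0.05, edgeR adjusted p = 0.592). SFXN2 fell (-0.75, edgeR adjusted p = 0.0207), and is 1 of the 6, while SFXN3 did not pass (-0.0032, edgeR adjusted p = 0.977).

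In the list of enzymes that consume folate-bound units, 2 of 9 tested rose and 4 fell, with a median of -0.24 (-0.39 with scaling by library size alone). The count that rose is near the 27.7% of all genes. This list also holds MTRR, named after its value was seen, which does not itself use a folate-bound unit. The median is the value of MTRR, which did not pass (edgeR adjusted p = 0.0943). ALDH1L1, the cytosolic relative of ALDH1L2 that burns off the formyl unit, rose from 51.3 ± 2.31 to 85.8 ± 7.51 CPM (SD, n = 3), a log2 fold change of 0.74. MTHFS rose by 0.73 and is among the 2 that rose, though it recovers a storage form of folate rather than consuming its unit. TYMS, thymidylate synthase, fell from 58.1 ± 9.78 to 34.1 ± 3.51 CPM (-0.77, edgeR adjusted p = 0.00086). MTFMT, which formylates the initiator tRNA of mitochondria, fell by 0.81 on the log2 scale.

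Of the glycine cleavage system, the mitochondrial complex that draws a one-carbon unit from glycine, 2 of 4 listed genes were tested and both fell. Among all genes 28.8% fell. GLDC and AMT, the other listed genes, were not analysed here, so the 2 tested do not stand for the whole system. GCSH, its carrier protein, went from 77.5 ± 10.4 to 43.4 ± 2.96 CPM (SD, n = 3; log2 fold change -0.84). DLD, a subunit shared with other dehydrogenase complexes, fell by 0.41 on the log2 scale. GCSH and DLD thus did not move the way of SHMT2, MTHFD2, MTHFD2L and MTHFD1L.

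In the methionine cycle and transsulfuration 2 rose and 2 fell among 7 tested (median -0.17), near the 27.7% and 28.8% of all genes. The 2 that rose were AHCYL2 and AHCYL1, relatives of the hydrolase AHCY, by 0.54 and 0.25. Whether these relatives act in the cycle was not tested, and no other gene of the list rose. CTH, which makes cysteine from cystathionine, fell by 0.75 on the log2 scale, and AHCY, which clears S-adenosylhomocysteine, by 0.37. In serine transport and use, 4 of 9 tested rose and 0 fell (median 0.35), with the sideroflexins counted in the folate list. The median was 0.23 without MPM-1 replicate 2, 0.20 with scaling by library size alone and 0.10 with limma on log2(FPKM + 0.1), and with library size alone 3 rose and 1 fell. SLC1A4, a serine carrier, and SLC6A9, a glycine carrier, both rose by 0.90, from 7.84 to 14.6 CPM and from 7.56 to 14.1 CPM. SPTLC1, a subunit of the enzyme that joins serine to a fatty acid for sphingolipids, rose by 0.40. SPTLC2, another subunit, named after its value was seen, did not pass (0.05, edgeR adjusted p = 0.687).

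All 12 tested genes of the ATF4 list rose, 9 of them as DEGs, with a median of 1.95. Among all genes 27.7% rose and 5.58% were higher DEGs. The list holds only ATF4 and targets outside the pathway, chosen with earlier results of these data known, and so does not stand for all ATF4 targets. ATF4, named after its values were seen, rose from 415 ± 14.0 to 853 ± 94.8 CPM (SD, n = 3), or 1.04 on the log2 scale (SE 0.09, edgeR adjusted p = 1.31e-05). ASNS, asparagine synthetase, had 182, 204 and 223 CPM in DMSO and 984, 1045 and 899 CPM after MPM-1. Its log2 fold change was 2.27, and none of the 9 enzymes was above 0.89. ATF3 and DDIT3, stress-induced transcription factors, rose by 3.08 and 2.98.

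**Figure D4:**
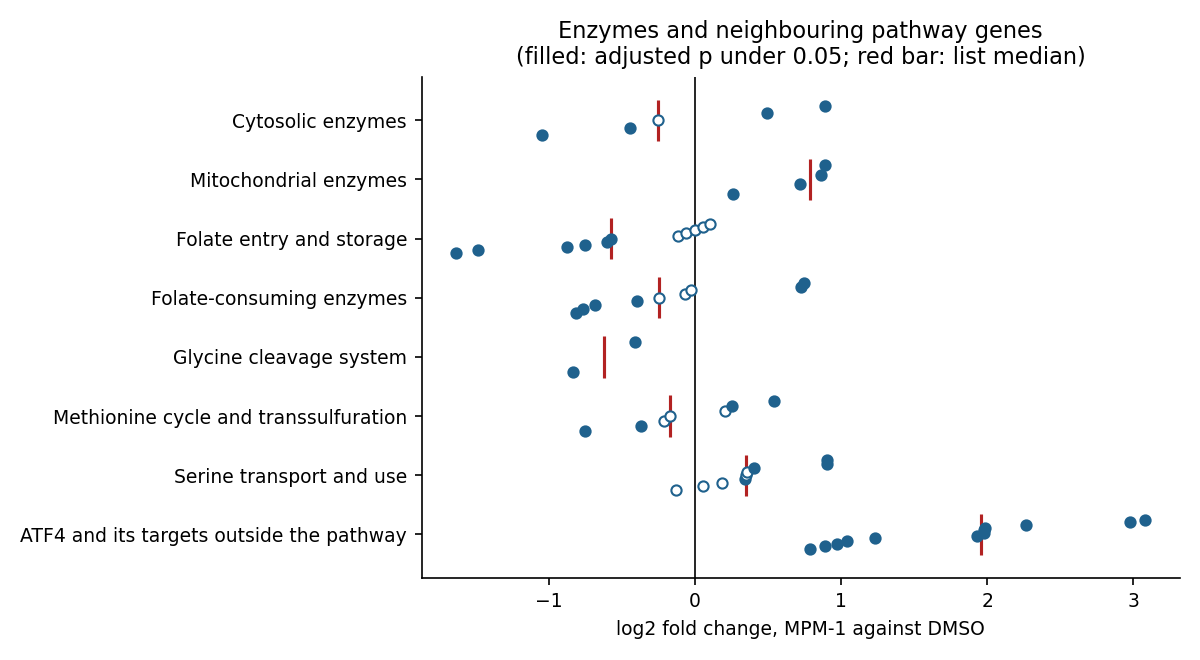
Log2 fold change of each tested gene, MPM-1 against DMSO, in the cytosolic and mitochondrial enzymes and the 6 neighbouring lists; filled points have an adjusted p under 0.05 and a red bar marks each list's median. The mitochondrial enzymes (median 0.79) and the ATF4 list (1.95) lie wholly to the right, and folate entry and storage (-0.57) mostly to the left.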

How the data were processed

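RNA sequencing of 6 SW480 libraries, 3 with DMSO and 3 with MPM-1, was analysed, with groups and replicate numbers from the sample titles. The authors deposited a table with the whole-number count of each gene, without normalization, and its FPKM. Per the file headers, the authors also gave log2 values of their own fold changes. Their FDR column, an adjusted p-value, was deposited beside them, and neither was used. HISAT2 and DESeq2 are named per the labels, with the mouse build mm10, although the identifiers are human and all 12127 Ensembl identifiers are in GENCODE release 29 (GRCh38), the source of coordinates here. The counting is not given in the sources used here. Every gene had a total of at least 115 counts.

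Counts were tested in R 4.3.3 with edgeR 4.0.16 (TMM scaling, quasi-likelihood test, no covariates), after a trial on simulated data. Standard errors were taken from the F statistic. The alternatives were DESeq2 1.42.0 as a test or for size factors, library size alone, a mean of at least 50 counts, limma 3.58.1 on log2(FPKM + 0.1, 1 or 0.01) over the 11497 genes whose mean reached 1 FPKM, the replicate block, and each library left out. A fold change on the log2(FPKM + pseudocount) scale understates the change of low genes. The enzymes and lists were chosen with earlier results of these data known. In each list the text names up to 3 rises and 3 falls, the largest among genes that passed and whose libraries did not overlap. Some genes that this rule names are not reported here. Counting error alone does not cover variation in library preparation.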

Additional observations from a re-analysis of the deposited data

How the results depend on the processing

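Over 14 alternatives, the count of enzymes that rose was 6 in all but those in which SHMT2 lost its call, with 5, and the direction of each of the 9 enzymes held. The count that fell was between 1 and 3, and the count of lower DEGs between 0 and 1, when each library was left out in turn. Leaving out replicate 2 or 3 of DMSO, or replicate 3 of MPM-1, left 1 that fell, as PSPH no longer passed, and without MPM-1 replicate 3 there were 0 lower DEGs. Library size alone moved the all-gene median from -0.026 to -0.18 on the log2 scale, and limma on log2(FPKM + 0.1) to -0.15. The genes of the 6 lists that rose numbered 18 to 21, and those that fell 12 to 17. The 4 ratios kept their direction under 9 alternatives each. With counts + 0.5 in place of FPKM, the log2 difference was 1.30 for SHMT2 to SHMT1 and 1.13 for MTHFD1L to MTHFD1. It was 1.11 for MTHFD2 to MTHFD1 and 0.14 for MTHFD2 to MTHFD2L. Without 1 library the log2 difference was 1.19 to 1.43 for SHMT2 to SHMT1, 0.97 to 1.27 for MTHFD1L to MTHFD1, 1.03 to 1.15 for MTHFD2 to MTHFD1 and 0.066 to 0.37 for MTHFD2 to MTHFD2L. The methionine list's median was 0.0024 without MPM-1 replicate 3, the 1 list whose median turned.

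With the replicate block, 6 enzymes rose and 2 fell, and 0 of the 9 calls changed. Pairing the ratios by number gave an exact permutation p of 0.25 for the first 3 ratios, the smallest that 3 pairs allow, and 0.75 for MTHFD2 to MTHFD2L. Deviations from the treatment means correlated at 0.066, 0.10 and -0.10 between libraries of the same number, and at -0.17 to 0.12 between those of different numbers. With 3 libraries per treatment these values show no pairing by number but cannot exclude it. The block gave 3475 higher and 3642 lower genes, against 3596 and 3740 without it.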
